A study of Homo sapiens with 9 samples.

Results

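The tetraspanin genes of RKO, a human colorectal carcinoma cell line, were followed through knockout of DIP2C, the gene of a disco-interacting protein 2 family member. Members were the rows of the expression files named TSPAN followed by a number, with CD9, CD37, CD53, CD63, CD81, CD82, CD151, UPK1A and UPK1B added by name, which gave 31 of 23619 gene symbols. The rule used symbols and no measured values. RNA sequencing had been done on 2 samples of parental RKO cells, on 2 clones labelled DIP2C-/- (E3 and C10) and on 5 clones labelled DIP2C+/- (A6-C9, A9-A12, F6-A7, G1-A5 and H9-A4), each after 48 h of growth. In the clones part of exon 9 of DIP2C had been removed by rAAV-mediated targeting, on 1 allele in DIP2C+/- cells and, after a second round of targeting, on both in DIP2C-/- cells. The selection cassette was then taken out with Cre, so that parental cells, which went through neither step, differ from the clones by targeting, selection and single-cell cloning as well as by genotype. Each clone was 1 library, and the study describes fewer DIP2C+/- clones than the files hold. Both DIP2C-/- clones descend from the same DIP2C+/- clone, so they share a founder, and which of the 5 libraries is that clone is not given in the sources used here. Clones that go the same way are therefore not known to be independent observations.

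Tetraspanins are small membrane proteins that cross the membrane repeatedly and carry a large and a small extracellular loop. They bind each other and partner proteins, among them integrins, immunoglobulin superfamily proteins and proteases, and gather them into membrane microdomains, and several are carried at high density on extracellular vesicles. In colonic epithelium and its tumours they are known mainly for adhesion, migration and the trafficking of their partners.

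Values are given as CPM (counts per 1e6 counts of a library, scaled by TMM, which evens out differences in library make-up). The deposited totals were 14772593 to 21486483 estimated counts per sample, with a median of 18751852, and 3 counts, taken as the smallest detectable amount, corresponded to 0.14 to 0.203 CPM. These floors cover counting error only. DIP2C itself stood at 61.0 and 70.9 CPM in parental RKO, at 17.4 and 22.8 CPM in the DIP2C-/- clones and at 33.6 to 56.3 CPM in the DIP2C+/- clones, of which H9-A4 was the highest. H9-A4 thus kept 85.4% of the parental mean, where the other DIP2C+/- clones had 51.04% to 71.3%. The gene count does not separate exon 9 from the rest of the transcript, so these files cannot settle whether H9-A4 carries the deletion, and its label could not be checked. It is kept as labelled in every DIP2C+/- mean. H9-A4 stood apart from the other 4 DIP2C+/- clones in much of what follows, so results are given with all 9 samples and without it. Among markers of colonic epithelium, KRT18, KRT8 and CDX2 were above 1 CPM in every sample, whereas 4 of the 8, CDH1 among them, were at or below 1 CPM in every sample. The summed level of the 8 was 247.5 to 306.0 CPM in parental RKO, 150.6 to 183.9 in DIP2C-/- and 182.5 to 331.0 in DIP2C+/- clones. Of 6 leukocyte markers only CORO1A was above 1 CPM in every sample, and of 6 fibroblast and 4 endothelial markers 0 were.

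Expression of the family was carried by a few genes. Compared per kilobase of annotated exon, CD151 was the highest member in parental RKO, at 60.0 ± 1.19 CPM per kb (SD, n = 2), and its 2 samples did not overlap those of the next gene. CD63, TSPAN33, CD9 and CD81 followed at means of 24.3, 19.2, 16.9 and 16.1 CPM per kb, in an order that their parental samples did not resolve, since each of CD63, TSPAN33 and CD9 overlapped the gene after it. TSPAN17, TSPAN3 and TSPAN6 came next at 14.1, 11.2 and 7.54 CPM per kb. TSPAN15 had rank 9 with 4.39 ± 0.0797 CPM per kb (SD, n = 2), and TSPAN4 rank 10 with 3.73 ± 0.418. With the longest transcript in place of all exons as the length, CD151 and CD63 stayed first and second, while TSPAN33 moved from rank 3 to rank 5 and TSPAN4 and TSPAN15 exchanged places.

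The other members were low or not detectable at this depth. CD53, TSPAN2, TSPAN8, TSPAN16, TSPAN19, TSPAN32, UPK1A and UPK1B did not pass the filter on low counts, and their highest value in any sample was 0.58 CPM. They include CD53 and TSPAN32 of leukocytes and the uroplakins UPK1A and UPK1B, which line the urothelium. The remaining 23 members were tested together with all 15532 genes that passed the filter.

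**Figure D1:**
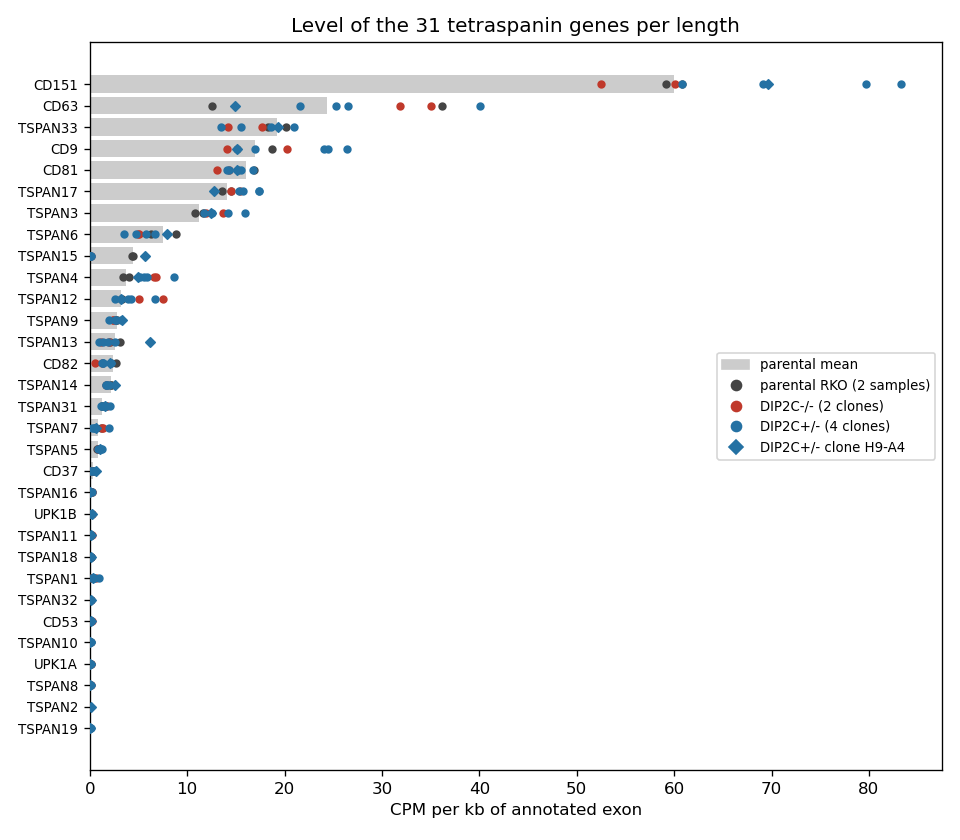
Level of the 31 tetraspanin genes in CPM per kb of annotated exon (linear axis), with the parental mean as a bar and each of the 9 samples as a point, and H9-A4 as a diamond. CD151 leads at a parental mean of 60.0 CPM per kb, and the genes from CD37 down have parental means of at most 0.345 CPM per kb.

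With all 9 samples, 0 of the 23 tetraspanins reached an adjusted p under 0.05 by edgeR's quasi-likelihood test in any of 4 contrasts. The same held for nearly every gene, with 0.00644% of 15532 called between DIP2C-/- and parental RKO, 0.0966% between DIP2C+/- and parental RKO, 0.180% between all 7 clones and parental RKO and 0% between DIP2C+/- and DIP2C-/-. At an unadjusted p under 0.05 by edgeR there were 5, 2, 4 and 1 tetraspanins in these contrasts, where 12.7%, 11.6%, 13.4% and 5.57% of all genes were. DESeq2 called 0 tetraspanins in each, where it called 1.90%, 1.23%, 1.96% and 0.0386% of all genes. It gave no adjusted p for TSPAN15, so that gene could not be called by DESeq2. The median log2 difference of the 23 was 0.02, 0.01, 0.10 and 0.15, beside 0.02, 0.02, 0.02 and 0.01 over all genes tested. DIP2C, the targeted gene, was not called by edgeR with all 9 samples either. Its log2 change in DIP2C-/- was -1.71 with adjusted p = 0.0998, and its adjusted p was 0.386 in DIP2C+/- and 0.132 in all clones. A gene that is not called in this fit is therefore not shown to be unchanged.

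Without H9-A4 the spread between samples was smaller, with a common coefficient of biological variation of 0.242 in place of 0.298. TSPAN15 was then called lower in DIP2C-/-, in DIP2C+/- and in all clones, and TSPAN4 was called higher in all clones. These were 1, 1 and 2 of 23 members, against 4.76%, 7.95% and 8.95% of 15390 genes, so called members made up a share near the background. H9-A4 was known to stand apart from earlier results of these data when this fit was planned. A fit of the DIP2C-/- clones and parental RKO alone called 3 of 22 members (TSPAN15 lower, TSPAN4 and TSPAN12 higher), against 12.6% of 14381 genes.

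**Figure D2:**
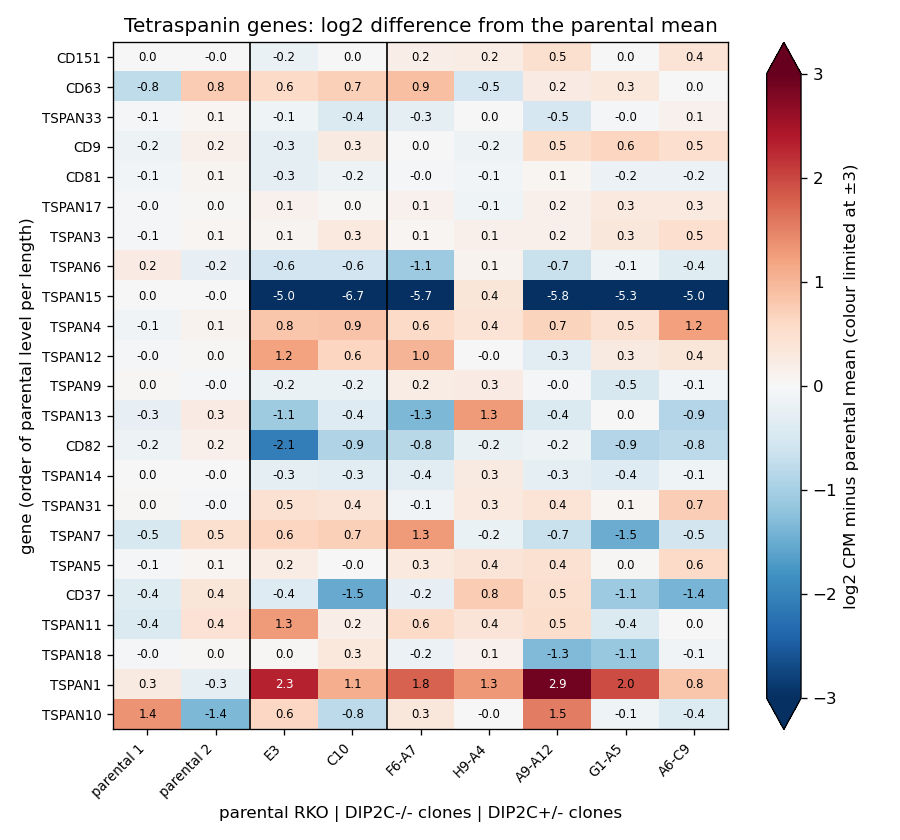
Log2 CPM of the 23 tested tetraspanin genes (rows, in order of parental level per length) in each sample (columns) minus the parental mean, with the value printed in each cell and the colour limited at 3 either way. TSPAN15 is between 5.0 and 6.75 below the parental mean in 6 clones and 0.36 above it in H9-A4.

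The TspanC8 tetraspanins, which bind the metalloprotease ADAM10 and take it to the cell surface, held the largest difference among the 23 tested members. TSPAN15, the member that directs ADAM10 to N-cadherin, was at 11.8 and 11.5 CPM in the parental samples. It was at 0.258 and 0 CPM in the DIP2C-/- clones E3 and C10. In the DIP2C+/- clones it was at 0.255 CPM in A6-C9, 0.107 in A9-A12, 0.122 in F6-A7, 0.197 in G1-A5 and, by contrast, 14.9 in H9-A4. In these bulk libraries fewer cells with the transcript and less transcript per cell cannot be told apart. Thus 6 clones lay near or below the floor of 3 counts, with 0 to 5 reads each, and H9-A4 lay above both parental samples with 371 reads. As a share of reads, parental RKO exceeded the DIP2C-/- clones 91.3-fold (95% exact interval 38.9 to 283, counting error only, 473 against 5 reads) and the 6 clones 79.7-fold (50.5 to 134, 473 against 19 reads). CDH2, the gene of N-cadherin, was itself at 0.102 to 0.548 CPM over all samples and did not pass the filter on low counts.

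The fits of TSPAN15 turned on H9-A4. With all samples the log2 change was -6.53 ± 2.67 (SE) in DIP2C-/-, -1.90 ± 1.49 in DIP2C+/- and -3.22 ± 1.44 in all clones, with adjusted p = 0.366, 0.652 and 0.369 by edgeR's quasi-likelihood test. Without H9-A4 it was -6.54 ± 0.82, -6.02 ± 0.58 and -6.19 ± 0.51, with adjusted p = 0.00122, 0.000121 and 3.12e-05. The change in DIP2C-/- was -10.76 without E3, which left C10 with 0 reads as the only clone, and -5.50 without C10. Over all the alternatives run, the adjusted p of these contrasts spanned 0.000403 to 0.768, 0.000121 to 0.903 and 3.12e-05 to 0.815. Since fitted changes of a gene at a few counts depend on the prior count of the fit, the ratios of reads are the better guide to size.

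TSPAN15 lies on chromosome 10, at chr10:71211221-71267422 on the plus strand of GRCh37 (the coordinates of hg19), and spans exons and introns of 1 protein-coding gene. DIP2C lies far from it on the same chromosome, at chr10:320141-735608 on the minus strand. The member TSPAN14 is also on chromosome 10, at chr10:82214021-82292880. Whether position bears on the level of TSPAN15 was not tested. The promoters of TSPAN15 and TSPAN4 are shown because these are the members called without H9-A4. Both sequences are from RefSeq on GRCh38.p14, run from 250 bases before to 50 bases after the gene's start on the plus strand, and are 300 bases long with every CG dinucleotide in capitals. TSPAN15 has 20 CG dinucleotides, a number reached by 41.2% of 27305 promoters of this length, and TSPAN4 has 47, reached by 2.40%. The median was 14 over all promoters and 14 over the 23 tetraspanins found in the table, with a range of 1 to 53.
TSPAN15, chr10:69451215-69451514: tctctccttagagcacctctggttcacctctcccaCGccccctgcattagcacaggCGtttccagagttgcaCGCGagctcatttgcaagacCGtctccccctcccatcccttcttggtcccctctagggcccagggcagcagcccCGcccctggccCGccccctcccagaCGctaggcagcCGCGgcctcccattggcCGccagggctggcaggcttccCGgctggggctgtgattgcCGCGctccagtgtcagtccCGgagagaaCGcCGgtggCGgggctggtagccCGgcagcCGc
TSPAN4, chr11:842602-842901: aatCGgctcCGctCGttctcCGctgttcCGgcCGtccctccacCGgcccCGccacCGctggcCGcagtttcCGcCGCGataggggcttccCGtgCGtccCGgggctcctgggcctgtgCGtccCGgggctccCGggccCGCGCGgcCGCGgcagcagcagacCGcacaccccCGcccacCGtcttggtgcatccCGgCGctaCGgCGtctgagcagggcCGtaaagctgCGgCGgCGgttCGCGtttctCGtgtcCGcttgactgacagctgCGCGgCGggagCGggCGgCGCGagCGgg
The counts of CG are a description of the reference sequence, and methylation of these windows is not analysed here.

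The other 5 TspanC8 genes did not pass the test in any genotype, with or without H9-A4. TSPAN33, which is known from erythroid and B cells, was at 61.3 and 67.5 CPM in parental RKO, 59.3 and 47.6 in DIP2C-/- and 45.3 to 70.2 in DIP2C+/- clones. TSPAN17, which with TSPAN5 forms a closely related pair, was at 71.0 and 75.7 CPM in parental RKO, 80.4 and 75.6 in DIP2C-/- and 66.7 to 90.6 in DIP2C+/- clones. Both DIP2C-/- clones lay below the parental samples for TSPAN33, whereas the DIP2C+/- clones overlapped them for both genes. TSPAN14 was at 38.5 CPM in both parental samples, at 46.7 in H9-A4 and at 29.5 to 35.3 in the remaining 6 clones. TSPAN5 stayed between 5.78 and 9.04 CPM, and TSPAN10 reached at most 0.698 CPM and was listed at 0 in parental 2.

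Summed over the 6 genes, the TspanC8 level was 188.9 and 199.4 CPM in parental RKO, 169 ± 13.5 (SD, n = 2) in DIP2C-/- and 187 ± 17.4 in DIP2C+/- clones (SD, n = 5). Both DIP2C-/- clones, at 178.6 and 159.6 CPM, lay below the parental samples, and the DIP2C+/- clones overlapped them. Its make-up per length also differed between samples. TSPAN15 made up 11.3% and 10.3% of the summed CPM per kb in the parental samples, 13.6% in H9-A4 and 0% to 0.271% in the other 6 clones. TSPAN17 made up 34.6% in both parental samples, 30.8% in H9-A4 and 41.7% to 48.7% in the 6 clones, and TSPAN33 46.4% and 47.9%, 46.6% and 41.9% to 50.3%. Shares of 1 sum are not independent, so a lower share of TSPAN15 raises the other shares by construction. How much of the difference in TSPAN17's share this makes up was not tested. The level of TSPAN17 itself was 13.6 and 14.5 CPM per kb in parental RKO and 14.5 to 17.4 in the 6 clones. That of TSPAN33 was 18.3 and 20.1 CPM per kb in parental RKO and 13.5 to 20.9 in the 6 clones. With the longest transcript as the length, TSPAN15 made up 14.1% and 12.97% in parental RKO and at most 0.349% in the 6 clones. Both lengths come from the same annotation, which is not the one the authors used, so all these shares depend on it.

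**Figure D3:**
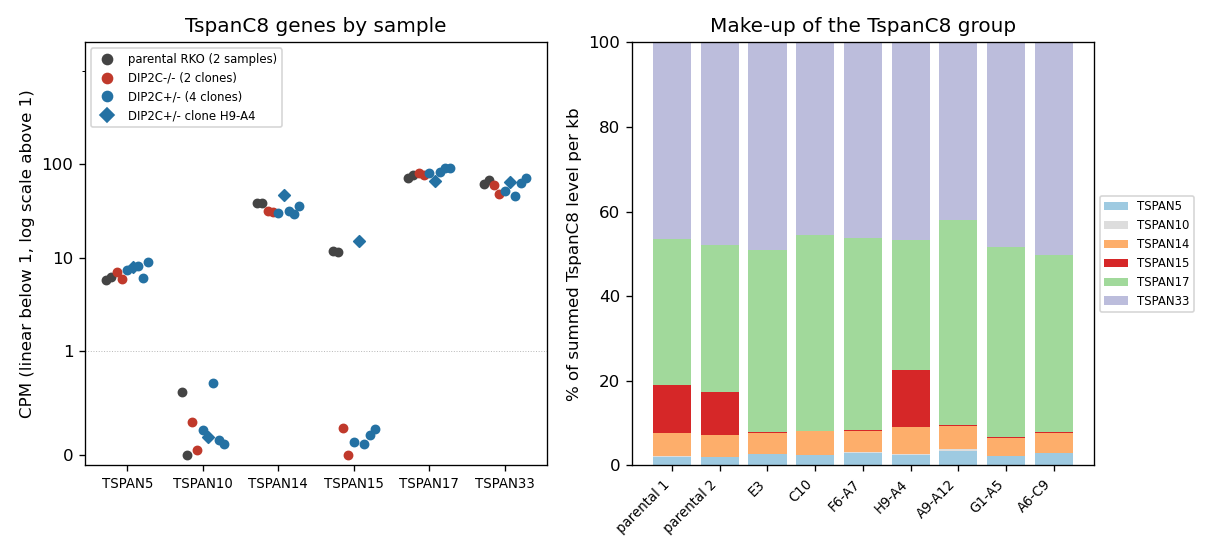
CPM of the 6 TspanC8 genes in each sample (left, linear below 1 and log scale above), and the percentage of the summed TspanC8 CPM per kb that each gene makes up in each sample (right). TSPAN15 is 10.3% to 13.6% of the bar in parental RKO and H9-A4 and at most 0.271% in the other 6 clones.

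Among the tetraspanins grouped here as integrin partners (CD151, CD82 and TSPAN4), TSPAN4 was higher in the clones and CD82 lower, with unlike support. TSPAN4, which builds the migrasomes left behind by moving cells, was at 20.05 and 23.5 CPM in the parental samples and at 38.6 and 39.5 CPM in E3 and C10. In the DIP2C+/- clones it was at 50.7 CPM in A6-C9, 34.4 in A9-A12, 32.5 in F6-A7, 30.01 in G1-A5 and 28.9 in H9-A4. Every clone lay above both parental samples, H9-A4 closest to them. The mean was 1.79 times the parental mean in DIP2C-/- and 1.62 times in DIP2C+/- clones.

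With all samples the log2 change of TSPAN4 was 0.84 ± 0.27 (SE) in DIP2C-/-, 0.70 ± 0.23 in DIP2C+/- and 0.74 ± 0.22 in all clones, with adjusted p = 0.318, 0.384 and 0.280 by edgeR's quasi-likelihood test. Without H9-A4 it was 0.84 ± 0.25, 0.76 ± 0.22 and 0.79 ± 0.21, with adjusted p = 0.0830, 0.0584 and 0.0398. In that fit TSPAN4 was thus called in the remaining clones together but in neither genotype alone. When only DIP2C-/- and parental RKO were fitted, it was called in DIP2C-/- (edgeR's adjusted p = 0.00754). Over the alternatives run the adjusted p spanned 0.00754 to 0.768, 0.0584 to 0.868 and 0.0398 to 0.815.

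TSPAN4 and CD151 are neighbours on chromosome 11, on the same strand and 2980 bp apart, at chr11:842812-867116 and chr11:832887-839831 in GRCh37. CD151, which holds integrins of laminin in the membrane, was at 237 and 230 CPM in parental RKO, at 205 and 234 in DIP2C-/- and at 237 to 325 in DIP2C+/- clones. Its log2 change was -0.09 ± 0.18 in DIP2C-/- and 0.27 ± 0.15 in DIP2C+/- clones (edgeR's adjusted p = 0.872 and 0.504). C10 and G1-A5 lay within the parental range of CD151, E3 below it and the remaining 4 clones above it. CD151 shares 257 bp of its 3894 bp of exon with POLR2L on the opposite strand. The strand setting of the counting is not given in the sources used here, so reads within that stretch cannot be told apart.

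CD82, also known as KAI1 and found as a suppressor of metastasis, was at 8.59 and 10.8 CPM in the parental samples and at 2.19 and 5.13 CPM in E3 and C10. In the DIP2C+/- clones it was at 5.51 CPM in A6-C9, 8.59 in A9-A12, 5.36 in F6-A7, 5.17 in G1-A5 and 8.27 in H9-A4. All 7 clones lay below both parental samples, but A9-A12 and parental 1 gave the same value to 3 digits. The log2 change was -1.39 ± 0.45 in DIP2C-/-, -0.56 ± 0.36 in DIP2C+/- and -0.80 ± 0.34 in all clones, with edgeR's adjusted p = 0.319, 0.578 and 0.348. Leaving out H9-A4 gave adjusted p = 0.102, 0.323 and 0.123, and the alternatives together spanned 0.0510 to 0.776, 0.323 to 0.914 and 0.123 to 0.834. CD82 lies at chr11:44585977-44641908 on the plus strand of GRCh37, with TSPAN18 106106 bp further along.

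The tetraspanins used as markers of extracellular vesicles were among the highest of the family and did not pass the test in any contrast. CD63, which resides in late endosomes and is sorted into exosomes, was at 30.5 CPM in parental 1 and 87.5 in parental 2. It was at 77.2 and 84.9 CPM in DIP2C-/- and at 36.1 to 97.1 in DIP2C+/- clones. The parental samples thus lay 1.52 apart on the log2 CPM scale and covered 6 of the 7 clones, and CD63 was the most different member between them among those at more than 1 CPM in both, followed by TSPAN7 at 1.60 and 3.24 CPM. CD9, a partner of the EWI proteins and of integrins, was at 88.2 and 109 CPM in parental RKO, 81.9 and 118 in DIP2C-/- and 87.9 to 154 in DIP2C+/- clones. C10 and, at 143, 154 and 140 CPM, A9-A12, G1-A5 and A6-C9 lay above both parental samples. CD81, a member of the B cell co-receptor and the hepatitis C virus receptor, was at 122 and 135 CPM in parental RKO and between 104 and 134 CPM in the clones.

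In log2 terms the change over all clones was 0.19 ± 0.38 (SE) for CD63 (-0.39 without parental 1), 0.25 ± 0.23 for CD9 and -0.12 ± 0.12 for CD81, with edgeR's adjusted p = 0.880, 0.686 and 0.693. The 3 genes together summed to 241 and 331 CPM in parental RKO, 290 ± 38.2 (SD, n = 2) in DIP2C-/- and 308 ± 37.3 in DIP2C+/- clones (SD, n = 5).

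TSPAN12, a co-receptor that lets Norrin signal through Frizzled-4, is described here after its values were seen. It was at 10.5 and 10.97 CPM in parental RKO and at 25.0 and 16.7 CPM in E3 and C10. In the DIP2C+/- clones it was at 13.9 CPM in A6-C9, 8.43 in A9-A12, 22.1 in F6-A7, 13.01 in G1-A5 and 10.6 in H9-A4. Both DIP2C-/- clones lay above the parental samples, whereas the DIP2C+/- clones lay on both sides. The log2 change in DIP2C-/- was 0.96 ± 0.40 with edgeR's adjusted p = 0.373 in all samples and 0.95 ± 0.24 with adjusted p = 0.0328 when only DIP2C-/- and parental RKO were fitted, the lower end of a range up to 0.814 over the alternatives.

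Of the epithelial tetraspanins, TSPAN8, a marker of gastrointestinal tumours, was at most 0.258 CPM. TSPAN1 and TSPAN13 are described after their values were seen. TSPAN1 was at 0.275 and 0.157 CPM in the parental samples, or 7 and 3 reads. It was at 0.57 and 1.48 CPM in DIP2C-/- and at 0.46 to 2.25 CPM in DIP2C+/- clones, with 9 to 54 reads in each clone. All 7 clones lay above both parental samples, with a log2 change over all clones of 2.29 ± 0.77 and edgeR's adjusted p = 0.307, at a level close to the floor. TSPAN13 was at 4.24 and 6.11 CPM in parental RKO, 1.95 to 5.17 in 6 clones and 12.4 in H9-A4.

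The other members showed smaller differences. TSPAN3 was at 90.7 and 97.7 CPM in parental RKO and at 98.5 to 134 CPM in the 7 clones, which all lay above, with a log2 change over all clones of 0.23 ± 0.14 and edgeR's adjusted p = 0.503. TSPAN6, an endosomal tetraspanin, was at 40.0 and 28.4 CPM in parental RKO, 22.6 and 22.8 in DIP2C-/- and 15.7 to 36.0 in DIP2C+/- clones, with -0.45 ± 0.27 and adjusted p = 0.483. For TSPAN6 the SD was 8.23 CPM in the 2 parental samples and 6.61 CPM in the 7 clones, although the clones covered the wider range. Both DIP2C-/- clones were among the 5 clones below both parental samples. TSPAN9 was between 13.6 and 22.8 CPM and TSPAN31, which shares 1369 bp of exon with CDK4 on the opposite strand, between 6.03 and 10.9. TSPAN7 was between 0.739 and 5.67 CPM, TSPAN11 between 0.493 and 1.87, TSPAN18 between 0.161 and 0.726 and the leukocyte gene CD37 between 0.415 and 2.44. CD37 had 8 to 60 reads and shares 319 bp of exon with TEAD2 on the opposite strand, so reads within that stretch cannot be told apart.

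Some members lay above or below both parental samples in all 7 clones. Of the 23 tested, 3 were above (TSPAN1, TSPAN3 and TSPAN4), where 5.41% of 15532 genes were, and 1 was below (CD82), where 5.54% were. Without H9-A4 the same 3 were above, against 12.4% of genes, and CD82, TSPAN14 and TSPAN15 were below, against 11.5%. Clone by clone, tetraspanins at least 2-fold above the parental mean numbered 3 of 23 in E3 (8.95% of all genes were), 1 in C10 (5.70%), 3 in F6-A7 (8.13%), 1 in G1-A5 (4.01%), 2 in A9-A12 (7.33%), 2 in H9-A4 (3.26%) and 1 in A6-C9 (6.19%). Those at least 2-fold below it numbered 3 in E3 (5.47%), 2 in C10 (6.23%), 3 in F6-A7 (5.97%), 4 in G1-A5 (7.96%), 2 in A9-A12 (6.55%), 0 in H9-A4 (4.18%) and 2 in A6-C9 (7.84%). On the same scale, log2 CPM with a prior count of 2, parental 2 was at least 2-fold above parental 1 in 1 member, CD63 (4.28% of genes), and below it in 1, TSPAN10 (3.62%). TSPAN15 (lower) and TSPAN1 (higher) passed 2-fold in 6 clones each, and CD37 was lower in 3. TSPAN15 was at least 4-fold lower in 6 clones, TSPAN1 at least 4-fold higher in E3 and A9-A12, and CD82 at least 4-fold lower in E3. This made 3 members past 4-fold in E3 (2.72% of genes), 2 in A9-A12 (3.34%), 0 in H9-A4 (1.21%) and 1 each in C10 (2.80%), F6-A7 (2.81%), A6-C9 (3.21%), G1-A5 (2.43%) and between the parental samples (1.19%).

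The whole family summed to 872 and 971 CPM in parental RKO, 910 ± 51.3 (SD, n = 2) in DIP2C-/- and 1010 ± 54.4 in DIP2C+/- clones (SD, n = 5). Between DIP2C+/- and DIP2C-/- clones, the contrast of gene dose, CD151 was the 1 member with an unadjusted p under 0.05, at a log2 difference of 0.36 ± 0.15 and edgeR's adjusted p = 0.878.

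The partners of tetraspanins were read from a list of 60 genes, of which 50 passed the filter on low counts. With all samples edgeR called 0 of 50 in any contrast. An unadjusted p under 0.05 was reached by 15, 10 and 13 in DIP2C-/-, DIP2C+/- and all clones against parental RKO and by 4 between the genotypes, beside 12.7%, 11.6%, 13.4% and 5.57% of all genes. DESeq2 called 2, 2, 3 and 0, beside 1.90%, 1.23%, 1.96% and 0.0386% of all genes. Without H9-A4, 12 of 49 were called in DIP2C-/- (5 higher, 7 lower), 11 in DIP2C+/- (4 and 7) and 12 in all clones (5 and 7), against the 4.76%, 7.95% and 8.95% of all genes given above. The list and H9-A4's exclusion were both chosen with earlier results of these data known.

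ADAM10, the protease that TspanC8 proteins carry, was at 95.3 and 103 CPM in parental RKO, 112 and 121 in DIP2C-/- and 89.1 to 112 in DIP2C+/- clones, with a log2 change over all clones of 0.02 ± 0.13 and edgeR's adjusted p = 0.960. NOTCH2, a receptor cleaved by ADAM10, was at 304 and 355 CPM in parental RKO, 454 in H9-A4 and 204 to 226 in the remaining 6 clones. The 6 clones did not overlap the parental samples, and H9-A4 lay on their far side.

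Of the integrin chains, ITGB1, the beta chain shared by laminin and collagen receptors, was at 593 and 484 CPM in parental RKO, 1013 to 1463 in 6 clones and 386 in H9-A4. ITGA6, the laminin-binding alpha chain, was at 87.4 and 81.8 CPM in parental RKO, 33.4 to 58.5 in 6 clones and 81.8 in H9-A4. ITGB5, a vitronectin receptor chain, was at 92.6 and 115 CPM in parental RKO and 33.6 to 84.7 in all 7 clones. ITGA3, the main alpha chain bound by CD151, was at 45.9 and 47.1 CPM in parental RKO and 32.4 to 65.5 in the clones, on both sides of the parental samples. Without H9-A4 the log2 change over all clones was 1.19 ± 0.17 for ITGB1, -0.94 ± 0.18 for ITGA6, -1.23 ± 0.22 for ITGB5 and 0.09 ± 0.18 for ITGA3, with edgeR's adjusted p = 0.00153, 0.00968, 0.00645 and 0.848.

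The immunoglobulin superfamily partners of CD9 and CD81 were lower in most clones. IGSF3 was at 65.3 and 65.4 CPM in parental RKO, 24.5 to 41.3 in 6 clones and 67.0 in H9-A4. PTGFRN was at 196 and 213 CPM in parental RKO and 121 to 184 in all 7 clones, which did not overlap, and IGSF8 at 22.9 and 23.6 CPM and 11.2 to 28.9. IGSF8 was called lower in DIP2C-/- alone without H9-A4 (log2 -1.03 ± 0.25, adjusted p = 0.0437, with 0.00549 to 0.768 over the alternatives). PTGFRN was not called over all clones without H9-A4 (log2 -0.49 ± 0.15, adjusted p = 0.0644, the lower end of a range up to 0.815).

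Among the remaining partners, CD44, the hyaluronan receptor, was at 28.4 and 24.9 CPM in parental RKO, 164 to 287 in 6 clones and 1.02 in H9-A4. TIMP1, an inhibitor of metalloproteases that binds CD63, was at 53.1 and 63.4 CPM in parental RKO, 117 to 187 in 6 clones and 46.8 in H9-A4. BSG, an inducer of metalloproteases, was at 511 and 499 CPM in parental RKO and at 712 to 915 in all 7 clones, with H9-A4 the highest. ZDHHC2, an enzyme that palmitoylates tetraspanins, was at 21.2 and 23.2 CPM in parental RKO, 30.8 to 40.1 in 6 clones and 14.3 in H9-A4. In CD44, TIMP1 and ZDHHC2 H9-A4 thus lay below the parental samples and the other clones above them.

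Partners that were lower without H9-A4 also included FZD4, LRP6 and LAMP1. FZD4, the receptor that TSPAN12 assists, was at 32.7 and 33.1 CPM in parental RKO and 18.1 to 24.9 in all 7 clones. LRP6, a Wnt co-receptor, was at 60.7 and 76.7 CPM in parental RKO, 23.7 to 34.6 in 6 clones and 73.3 in H9-A4, and LAMP1, of the lysosomal membrane, at 164 and 155, 92.8 to 122 and 191 CPM. LRP5, the other Wnt co-receptor of the list, was not called, at 122 and 143 CPM in parental RKO and 98.2 to 171 in the 7 clones (edgeR's adjusted p = 0.528 over all clones without H9-A4). SDC1, a heparan sulphate proteoglycan, was at 115 and 112 CPM in parental RKO and 62.3 to 112 in the 7 clones, and was called in DIP2C-/- alone without H9-A4 (log2 -0.80 ± 0.19, adjusted p = 0.0390, with 0.00397 to 0.768 over the alternatives). Across the 12 partners called over all clones without H9-A4, edgeR's adjusted p was at most 0.0274, and over the alternatives it spanned 4.71e-05 to 0.816 for CD44, 0.00153 to 0.815 for ITGB1 and 0.000376 to 0.815 for LRP6.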

How the data were processed

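RNA of 9 RKO samples had been sequenced on the Ion Proton system. Alignment to hg19 (TopHat2 2.0.4) and quantification (Cufflinks 2.2.1, as in the submitters' processing notes) were done by the authors. Each sample has 1 deposited file of estimated counts for 23619 gene symbols, in which 0 rows lack a gene name. How the authors wrote these estimated counts, and their strand setting, are not given in the sources used here. In each sample 97.9% to 98.4% of the low values were whole multiples (tolerance 0.02 of a step) of 1 step of 0.711 to 1.11, which corresponds to 17134472 to 24864011 reads.

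The estimated counts were rounded, filtered with filterByExpr by genotype, scaled by TMM and fitted in edgeR 4.0.16 (R 4.3.3) with 1 coefficient per genotype over 9 samples. Contrasts were tested with the two-sided quasi-likelihood F test, with Benjamini-Hochberg adjustment over all genes tested. The all-clones contrast weighted the 7 clones equally. SE is the size of the log2 change divided by the square root of F. CPM used TMM-scaled library totals, the floor of 3 counts the unscaled totals, and single clones were compared on log2 CPM (TMM, prior count 2) without a test. The design assumed counts, and estimated counts were found. The code was tested on simulated counts.

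Genotypes came from the labels, which give no batch. Nothing says that the parental samples came from separate cultures, so p-values measure only the spread between these samples. Pairs within a genotype had a chi-square per degree of freedom of 18.0 to 118, so each was counted as 1 sample. Members and lists were chosen with earlier results of these data known. Members named in full were those called in any contrast with or without H9-A4, those at least 4-fold from the parental mean the same way in at least 2 clones with 5 CPM in some sample, the 8 highest per length, and CD9, CD63, CD81, CD82 and CD151. Partners were named if called, with ADAM10, ITGA3, ITGA6, ITGB1, IGSF8 and PTGFRN added. GENCODE 44, lifted to GRCh37, gave lengths, positions and overlaps, and held 86.8% of the symbols. The gene coordinates of the paper were instead those of UCSC hg19 from iGenomes, so lengths may differ from the gene models that were counted. Promoters of 23 of 31 members were in the RefSeq table of GRCh38.p14. The alternatives were DESeq2 size factors, library size alone, DESeq2 1.42.0, no filter, at least 10 counts in every sample, only the groups compared, values divided by the step, each sample left out in turn, a prior count of 0.5 and the longest transcript as length. Tables and plots were made with matplotlib 3.10.9, pandas 2.3.3 and numpy 2.4.6 under Python 3.11.15.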

Additional observations from a re-analysis of the deposited data

Results flagged for a closer look

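H9-A4 stood far from the other 4 DIP2C+/- clones in 7 of 29 genes examined. A gene was singled out where the gap between the highest or lowest clone and its nearest neighbour, divided by the range of the 5 clones on the log2 CPM scale, exceeded Dixon's critical value of 0.71. Chance singles out about 1 in 20 such groups, but many of the 29 genes were named because they were called when H9-A4 was left out, so their number is no test, and they come from 1 library. Over all 15532 genes tested, the same rule singled out H9-A4 in 3.90% and each of the other DIP2C+/- clones in 0.534% to 0.991%.

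TSPAN15 was the 1 tetraspanin among them, with a ratio of 0.877, at 14.9 CPM in H9-A4 and 0.107 to 0.255 CPM in the others. CD44 gave 0.899, at 1.02 CPM against 164 to 287. NOTCH2 gave 0.882, at 454 CPM against 204 to 224. ADAM10 gave 0.838, at 112 CPM against 89.1 to 92.5. LRP6 gave 0.832, at 73.3 CPM against 23.7 to 28.6. ZDHHC2 gave 0.744, at 14.3 CPM against 30.8 to 40.1. ITGB1 gave 0.725, at 386 CPM against 1013 to 1463. In all 7 genes H9-A4 was nearer on the log2 CPM scale to a parental sample than to any other DIP2C+/- clone. Nearer did not mean alike, since for CD44 the nearest parental sample was still 4.47 away. H9-A4 lay outside the parental range in each of these genes except LRP6. The DIP2C-/- clones were left out of this comparison, and for ADAM10 E3 (111.8 CPM) was closest to H9-A4 (112.3 CPM). DIP2C itself did not pass this rule, with 85.4% of the parental mean in H9-A4. Why H9-A4 stood apart was not tested.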

How the results depend on the processing

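DESeq2 gave TSPAN15 no adjusted p, and the filter of 10 counts in every sample removed it, so neither could call it. The number of tetraspanins called stayed at 0 in every contrast under DESeq2 size factors, library size alone, DESeq2, both other filters and division by the step. It became 3 in DIP2C-/- against parental RKO when only these groups were fitted, and leaving out 1 sample gave 0 to 1, 0 to 1 and 0 to 2 in DIP2C-/-, DIP2C+/- and all clones, the upper ends without H9-A4. Over all genes DESeq2 called 295, 191 and 304 in these contrasts and 6 between the genotypes. A filter of 10 counts in every sample gave 0, 8 and 11, no filter 3 in DIP2C-/-, and fits of only the groups compared 1807 in DIP2C-/-, 8 in DIP2C+/- and 1 between the genotypes. Leaving out 1 sample gave 1 to 733, 1 to 1224, 1 to 1378 and 0 to 3, the upper ends of the first 3 again without H9-A4. For partners DESeq2 called 2, 2 and 3, only the groups compared gave 18 in DIP2C-/-, and leaving out 1 sample gave 0 to 12, 0 to 11 and 0 to 12. With a prior count of 0.5, 2 members were at least 4-fold away in F6-A7 and 2 in G1-A5, and 3 members lay below both parental samples in the 6 clones other than H9-A4. The causes were not tested.

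Some small changes turned sign over all clones. CD63 ranged from -0.39 (without parental 1) to 1.14 (without parental 2). With library size alone ADAM10 was at -0.0060 and ITGA3 at -0.012, and leaving out 1 sample gave -0.041 to 0.081 and -0.075 to 0.086. TSPAN15 had no value under a filter of 10 counts in every sample and no adjusted p from DESeq2. No paired analysis was possible because replicate numbers are given for parental RKO alone, and the clone names carry none. Genes at a few counts, TSPAN1 and TSPAN10 among them, were limited by depth.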
